A study of Mus musculus with 6 samples.

Results

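Chondroitin sulfate and dermatan sulfate are long sugar chains that enzymes of the Golgi build on matrix proteoglycans such as decorin, biglycan and versican. The genes described here are 10 that encode such enzymes, taken by symbol: Csgalnact1, Csgalnact2, Chsy1, Dse, Dsel, Chst11, Chst12, Chst14, Chst15 and Chst3. Of these, 9 were measured among 16131 genes in the deposited table, and Chst3, which encodes a 6-O-sulfotransferase of chondroitin, was not analysed here. Both groups were skin taken on day 7 after wounding from C57BL/6 mice in which streptozotocin, which destroys pancreatic beta cells, had induced diabetes. One group received recombinant fibroblast growth factor 4 (rFGF4, 100 ng/ml at 10 µl per day) and the other phosphate-buffered saline (PBS, 10 µl per day), with 3 poly(A) RNA libraries each. Values were read as FPKM, fragment counts scaled to transcript length and library size. They keep no read counts, so that the depth behind each value is unknown. Comparisons between genes rest on that scaling, and fold changes here still varied with transcript length. The labels give neither the age of the mice nor whether the libraries came from separate animals, so the spread that each p-value rests on is that of the libraries and could be technical.

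The chain starts when an N-acetylgalactosaminyltransferase adds the first galactosamine to a linker on the core protein, and chondroitin synthases then add glucuronic acid and galactosamine in turn. Sulfotransferases place sulfate at position 4 or 6 of the galactosamine. Where an epimerase turns glucuronic acid into iduronic acid, the chain becomes dermatan sulfate, the main form on decorin in skin, and it binds growth factors and spaces collagen fibrils.

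Genes for starting, extending and epimerising the chains were higher with rFGF4 in the values as deposited. Of the 9 genes, 5 rose and 0 fell by limma with Benjamini-Hochberg adjusted p under 0.05, against 8.46% of the 14676 tested genes called higher and 3.62% called lower. All 3 genes for chain initiation and synthesis (Csgalnact1, Csgalnact2 and Chsy1) and both epimerase genes (Dse and Dsel) rose, by 1.62-fold to 2.27-fold in mean FPKM. With the length trend described below removed, only Dsel stayed called. Of the 4 sulfotransferase genes measured, limma called 0 over all genes, with 3 at an unadjusted p under 0.05, and their mean FPKM was 1.23-fold to 1.58-fold that of PBS skin. Whether the sulfotransferase genes differed in response from the other enzyme genes was not tested. In 8 of the 9 genes all 3 rFGF4 libraries lay above all 3 PBS libraries, against 30.9% of tested genes above and 7.36% below. The median log2 fold change of the 9 was 0.69, against 0.19 over all tested genes, of which 69.8% had a positive fold change. Fold changes here are on the log2(FPKM + 0.1) scale. All 9 genes passed the filter of at least 1 FPKM in at least 3 libraries in both groups, with 2.56 FPKM as the lowest value of any of them in a library.

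**Figure D1:**
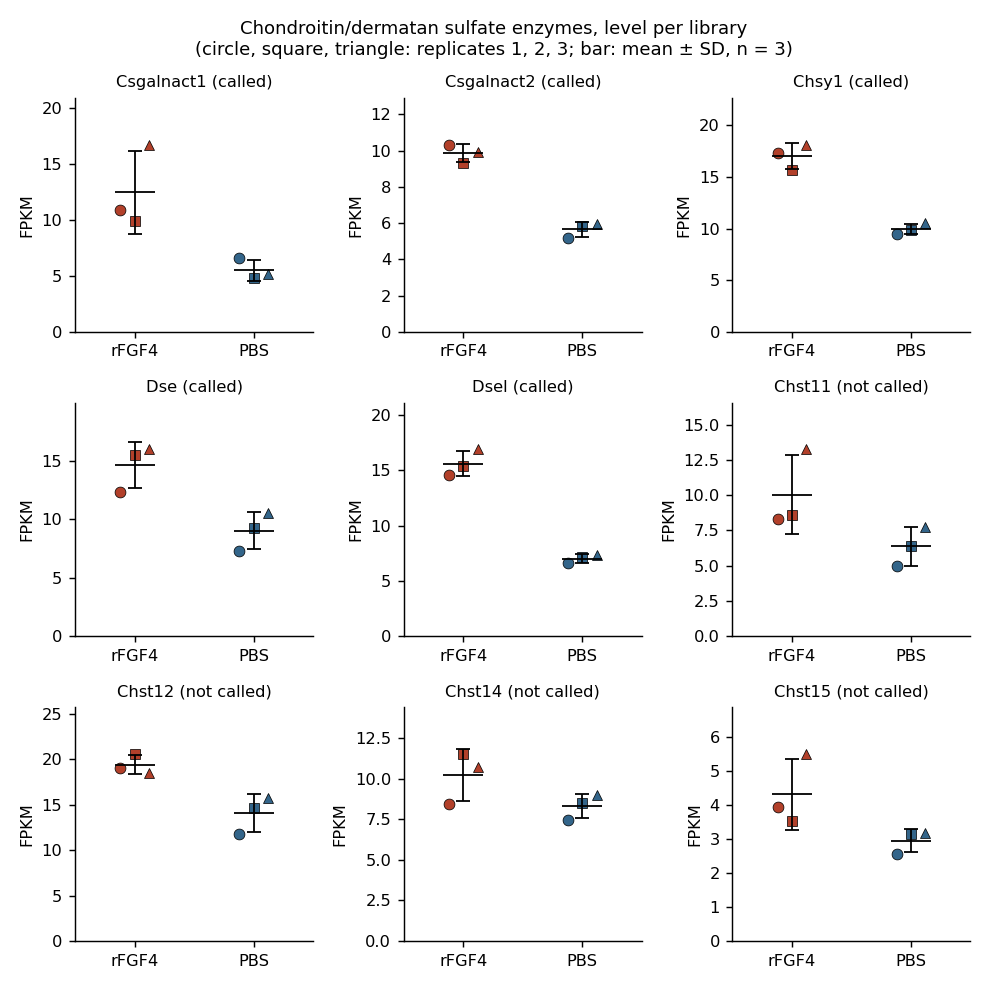
Each panel plots 1 enzyme gene, with the FPKM level on the y axis from 0 and the 3 rFGF4 and 3 PBS libraries on the x axis; points are libraries and bars the mean ± SD (n = 3 each). The groups overlap only in Chst14, where rFGF4 replicate 1 (8.44 FPKM) lies below PBS replicates 2 and 3 (8.49 and 8.99 FPKM).

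Promoters of the called genes with a RefSeq entry (Dsel, Dse, Csgalnact2 and Chsy1) are shown for their sequence content, with that of the uncalled Chst14 beside them. RefSeq promoters on GRCm38.p6 were found for 9 of the 10 genes, Chst3 included and Csgalnact1 without an entry, and the 250 bases before the first listed start were read on the gene's strand, 5′ to 3′. Capitals mark each match to the GC box, GGGCGG or its reverse complement.
Dsel, chr1:111864919-111865168, minus strand: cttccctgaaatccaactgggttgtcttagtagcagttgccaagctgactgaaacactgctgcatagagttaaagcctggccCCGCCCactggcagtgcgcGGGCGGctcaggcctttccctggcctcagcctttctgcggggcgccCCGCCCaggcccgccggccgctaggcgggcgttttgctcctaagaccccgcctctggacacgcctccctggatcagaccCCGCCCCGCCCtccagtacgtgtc
Dse, chr10:34207236-34207485, minus strand: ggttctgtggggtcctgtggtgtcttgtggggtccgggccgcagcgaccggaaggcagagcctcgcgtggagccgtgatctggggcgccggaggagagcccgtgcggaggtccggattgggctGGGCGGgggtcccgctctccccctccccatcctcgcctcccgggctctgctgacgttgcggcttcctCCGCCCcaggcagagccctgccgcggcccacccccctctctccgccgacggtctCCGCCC
Csgalnact2, chr6:118139141-118139390, minus strand: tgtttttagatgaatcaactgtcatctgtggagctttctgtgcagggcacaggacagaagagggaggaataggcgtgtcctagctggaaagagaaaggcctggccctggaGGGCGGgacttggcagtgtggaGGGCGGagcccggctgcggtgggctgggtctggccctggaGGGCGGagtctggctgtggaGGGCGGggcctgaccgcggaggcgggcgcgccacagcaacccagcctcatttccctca
Chsy1, chr7:66109242-66109491, plus strand: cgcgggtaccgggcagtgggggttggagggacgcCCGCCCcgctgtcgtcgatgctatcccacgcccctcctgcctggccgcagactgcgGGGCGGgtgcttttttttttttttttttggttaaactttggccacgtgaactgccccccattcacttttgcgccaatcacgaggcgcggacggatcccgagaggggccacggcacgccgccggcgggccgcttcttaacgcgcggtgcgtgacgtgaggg
Chst14, chr2:118926247-118926496, plus strand: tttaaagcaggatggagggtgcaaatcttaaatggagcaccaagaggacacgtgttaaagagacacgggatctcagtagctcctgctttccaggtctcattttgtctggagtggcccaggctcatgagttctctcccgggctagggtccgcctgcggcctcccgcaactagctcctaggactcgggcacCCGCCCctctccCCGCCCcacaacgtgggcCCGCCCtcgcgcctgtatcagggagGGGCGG
All 9 first-listed promoters held a GC box, those of called and of uncalled genes alike and that of Chst3. Of all 32851 RefSeq promoters, further entries of a gene included, 32.7% held one, as did 55.8% of the 13199 promoters of tested genes. A further listed promoter of Csgalnact2 held 0 matches to the GC box or to any motif named below. One of Chst15 held 1 GC box and 1 TEAD motif. Counts for the enzyme genes below are of the first-listed windows. Dsel had 5 matches, of which 1 pair overlapped, Csgalnact2 and Chst14 had 4 each, Dse had 3 and Chsy1 had 2. The 9 first-listed promoters had a median of 18 CpG per window, near the 15 in promoters of tested genes, against 6 in all. The TATA box (TATAAA) matched in 0 of 9 windows, against 7.25% of promoters of tested genes. The AP-1 motif (TGANTCA) matched in Csgalnact2 alone and the ETS motif (CCGGAA) in Dse alone, where 5.07% and 20.6% of promoters of tested genes hold them. The CCAAT box (CCAAT) matched in Chst12, Chsy1 and Dse, and the E-box (CACGTG) in Chst14 and Chsy1, where 35.1% and 8.12% of promoters of tested genes hold them. The TEAD motif (GGAATG) matched in Chst15 alone, with 10.9% among promoters of tested genes, and the CRE (TGACGTCA) and the SMAD motif (GTCTAGAC) in 0 of 9, with 2.39% and 0.205%. Both strands were searched, and no match of 1 motif overlapped that of another. A match is a run of letters and not a shown binding site.

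Csgalnact1 and Csgalnact2 encode the N-acetylgalactosaminyltransferases that start and extend chondroitin chains. Csgalnact1 had 10.8, 9.89 and 16.7 FPKM in rFGF4 replicates 1 to 3, against 6.57, 4.77 and 5.13 FPKM in PBS replicates 1 to 3. The groups did not overlap, and rFGF4 replicate 3 stood well above the other two rFGF4 libraries. Its log2 fold change of 1.14 (SE 0.228, limma adjusted p = 0.0298) had the largest standard error among the 5 genes called. Csgalnact2 had 10.3, 9.34 and 9.94 FPKM in rFGF4 skin, against 5.20, 5.85 and 5.97 FPKM in PBS skin. These libraries were tightly grouped, at 9.86 ± 0.496 and 5.67 ± 0.414 FPKM in rFGF4 and PBS skin (SD, n = 3 each), and Csgalnact2 rose by 0.79 on the log2 scale (SE 0.113, limma adjusted p = 0.0154).

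Chsy1, a chondroitin synthase that adds both sugars of the repeating unit, had 17.3, 15.6 and 18.1 FPKM in rFGF4 skin, against 9.51, 9.91 and 10.5 FPKM in PBS skin. It was the second most abundant gene of the 9 in both groups, and the gap between the groups exceeded the range within either. Its log2 fold change was 0.76 (SE 0.110, limma adjusted p = 0.0155). When 1 library was left out, the Csgalnact1 call held only without rFGF4 replicate 2 (limma adjusted p = 0.0407, otherwise 0.0569 to 0.103). It was also lost with libraries centred on their medians (adjusted p = 0.07) and after quantile normalization (0.0621). The calls of Csgalnact2 and Chsy1 held without rFGF4 replicate 1 or 2 and were lost without rFGF4 replicate 3 or any 1 PBS library, at adjusted p of 0.0516 to 0.0698 for Csgalnact2 and 0.0523 to 0.0726 for Chsy1.

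Both epimerase genes rose, Dsel with the smallest adjusted p of the 9 genes. Dsel encodes the dermatan sulfate epimerase-like enzyme, and had 14.6, 15.3 and 16.9 FPKM in rFGF4 skin, against 6.60, 7.15 and 7.32 FPKM in PBS skin. No rFGF4 library was below 14.6 FPKM and no PBS library above 7.32 FPKM, and the log2 fold change was 1.14 (SE 0.111, 95% interval 0.87 to 1.40, limma adjusted p = 0.00465). By unadjusted p, Dsel ranked 4 among the 10248 tested genes with a positive fold change. It stayed called with each of the 6 libraries left out (limma adjusted p 0.0119 to 0.0329). Of all 14676 tested genes, 14 (0.0954%), Dsel included, stayed called higher in the same way.

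Dse, whose product is the major dermatan sulfate epimerase in many tissues, had 12.3, 15.5 and 15.9 FPKM in rFGF4 skin, against 7.31, 9.27 and 10.5 FPKM in PBS skin. The groups did not overlap, but their spread was wider than that of Dsel, and Dse rose by 0.69 on the log2 scale (SE 0.174, limma adjusted p = 0.0476). This call was lost in each fit without 1 library (adjusted p 0.0696 to 0.127) and when no filter on low values was used (adjusted p = 0.0504), when libraries were centred on their medians (0.151) and after quantile normalization (0.110).

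Within a library, the ratio of Dse to Dsel was 0.846, 1.01 and 0.945 in rFGF4 replicates 1 to 3, against 1.11, 1.30 and 1.43 in PBS replicates 1 to 3. Dse was thus the more abundant epimerase transcript in each PBS library, and the 2 transcripts were near equal in rFGF4 skin. The log2 ratio was lower by a mean difference of -0.45 in rFGF4 skin, with no overlap between groups (exact permutation p = 0.1, two-sided, the smallest that 3 against 3 libraries allow, and 0.5 adjusted over 5 ratios). The difference was -0.39 with the length trend described below removed, and between -0.54 and -0.36 under other pseudocounts and with each library left out. The remaining 4 ratios overlapped between groups. Csgalnact1 to Csgalnact2 was 1.05, 1.06 and 1.68 in rFGF4 skin and 1.26, 0.815 and 0.860 in PBS skin (exact permutation p = 0.3). Chst14 to Chst12, the 4-O-sulfotransferases of dermatan and chondroitin, was 0.442, 0.560 and 0.578 in rFGF4 skin and 0.638, 0.579 and 0.570 in PBS skin (exact permutation p = 0.2). Chst15 to Chst11 and Chst11 to Chst12 had exact permutation p of 0.4 and 0.9.

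**Figure D2:**
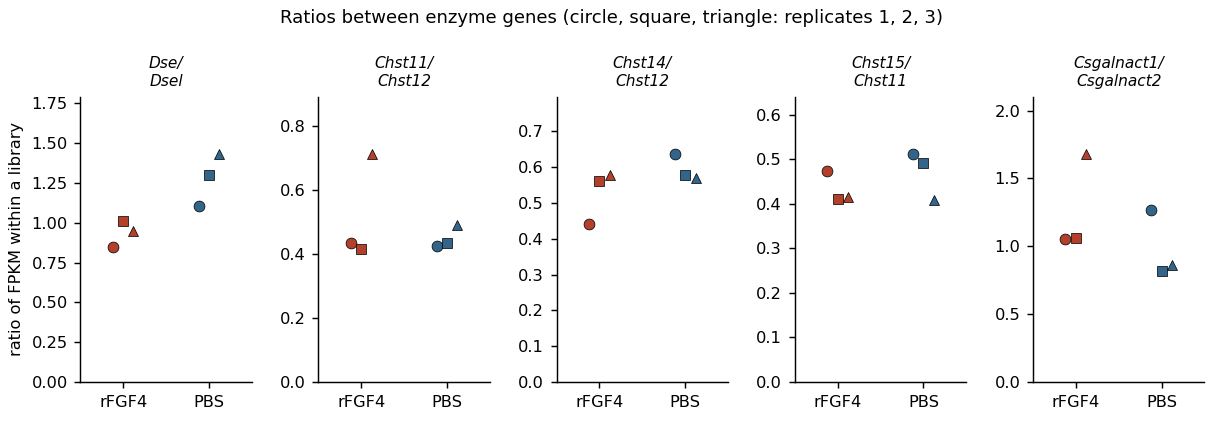
The y axes give the ratio of the FPKM of 2 genes within a library, from 0, and each point is 1 rFGF4 or PBS library. The groups separate in the ratio of Dse to Dsel (0.846 to 1.01 in rFGF4 skin, 1.11 to 1.43 in PBS skin) and overlap in the other 4 ratios.

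None of the 4-O-sulfotransferase genes passed the test over all genes. Chst12, a 4-O-sulfotransferase of chondroitin, had 19.1, 20.6 and 18.5 FPKM in rFGF4 skin, against 11.7, 14.7 and 15.8 FPKM in PBS skin. It was the most abundant gene of the 9 in both groups, and its log2 fold change of 0.47 (95% interval 0.14 to 0.80) did not pass (limma adjusted p = 0.069). Chst11, which carries out the same reaction, had 8.29, 8.58 and 13.2 FPKM in rFGF4 skin, against 4.99, 6.38 and 7.73 FPKM in PBS skin. The groups were close without overlap, and rFGF4 replicate 3 was again high (log2 fold change 0.64, 95% interval 0.08 to 1.20, limma adjusted p = 0.118). Chst14 sulfates galactosamine next to iduronic acid and so acts on dermatan; it had 8.44, 11.5 and 10.7 FPKM in rFGF4 skin, against 7.49, 8.49 and 8.99 FPKM in PBS skin. The groups overlapped, and the log2 fold change of 0.29 (95% interval -0.08 to 0.65, limma adjusted p = 0.247) was the smallest of the 9.

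Chst15 encodes the enzyme that adds a 6-O-sulfate to galactosamine already sulfated at position 4, which gives the disulfated chondroitin sulfate E unit. It had 3.94, 3.53 and 5.50 FPKM in rFGF4 skin, against 2.56, 3.14 and 3.17 FPKM in PBS skin. It was the least abundant of the 9 genes in every library, and its log2 fold change of 0.52 (95% interval 0.04 to 0.99, limma adjusted p = 0.131) did not pass. In the authors' deposited table the q-values of Chst11, Chst12, Chst14 and Chst15 lay between 0.311 and 0.839, and that of Dse was 0.116. The authors still marked Dse as significant there, unlike those sulfotransferase genes. The same table, the authors' deposited one, gave q-values of 3.57e-09 for Dsel and 0.00217 to 0.00263 for Csgalnact2, Chsy1 and Csgalnact1, with 4.49% of all listed genes higher and 6.63% lower at a q-value under 0.05.

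**Figure D3:**
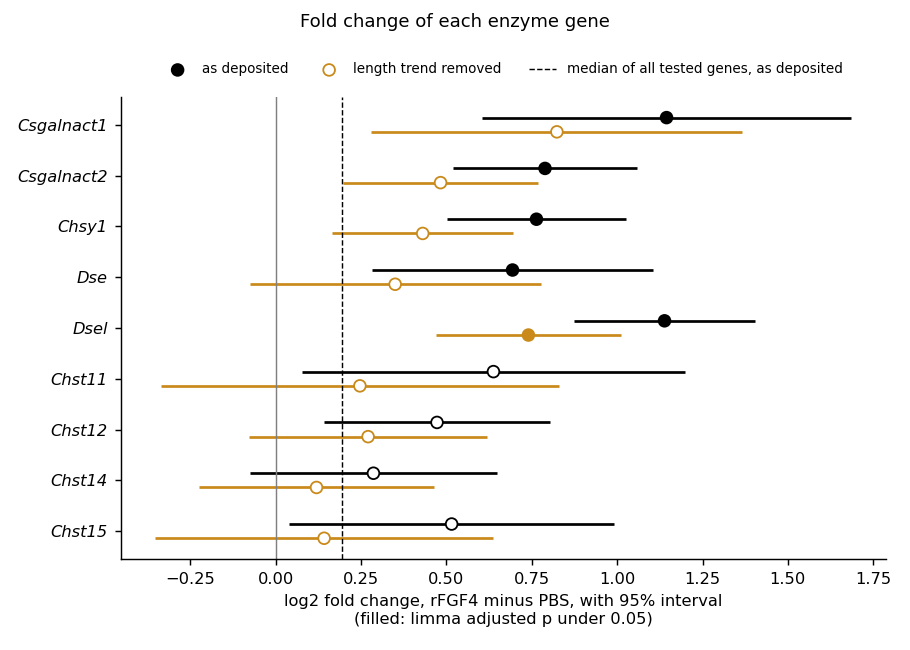
Points give the log2 fold change (rFGF4 minus PBS, x axis) of each gene with its 95% interval, as deposited in black and with the length trend removed in orange; filled points passed limma's adjusted p under 0.05. As deposited 5 genes passed, and Dsel (0.74) was the 1 gene that passed with the trend removed.

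The genes held different shares of their summed level. That sum was 105, 110 and 126 FPKM in rFGF4 skin, against 62.0, 69.6 and 75.1 FPKM in PBS skin. Dsel made up 13.8% ± 0.276 of it in rFGF4 skin, against 10.2% ± 0.453 in PBS skin (SD, n = 3 each), without overlap. Chst14 made up 9.02% ± 1.31 in rFGF4 skin, against 12.1% ± 0.109 in PBS skin, and Chst12 17.2% ± 2.14 against 20.3% ± 1.21, both also without overlap. Shares of a sum depend on each other, and the mean FPKM of Chst14 and Chst12 was itself higher in rFGF4 skin (1.23-fold and 1.38-fold). These are also the shortest transcripts of the 9 genes (2090 and 2331 bases). Neither the shares nor the order of levels given next were computed with the length trend described below removed. The shares of the other 6 genes overlapped between groups. In order of level, rFGF4 skin ran Chst12, Chsy1, Dsel, Dse, Csgalnact1, Chst14, Chst11, Csgalnact2 and Chst15. Only the first gene stood clear of the next by its range, and Chst15 stood clear at the low end. PBS skin ran Chst12, Chsy1, Dse, Chst14, Dsel, Chst11, Csgalnact2, Csgalnact1 and Chst15, with gaps in range after Chst12, after Chst14 and before Chst15. Among the rFGF4 libraries, replicate 3 was the highest in 6 of the 9 genes. Among the PBS libraries, replicate 1 was the lowest and replicate 3 the highest in 8 of the 9, with Csgalnact1 as the exception.

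Fold changes in this table were larger for longer transcripts (rho 0.502, Spearman, across 14191 genes that share the same 6 libraries and are no independent replicates). Principal transcripts of the 9 genes are of 2090 to 5759 bases in GENCODE M21. Dsel, at 5759 bases, Chst11, Chst15, Dse and Chsy1 fall among genes of 4000 to 6000 bases, with a median log2 fold change of 0.35 and 14.9% called higher. Csgalnact1, Csgalnact2, Chst12 and Chst14 fall among genes of 2000 to 4000 bases, with a median of 0.22 and 8.04% called higher. With the length trend removed from each library, 1 of the 9 was called higher and 0 lower, against 0.543% and 1.61% of 14191 genes, and 4 were at an unadjusted p under 0.05. That gene was Dsel (log2 fold change 0.74, limma adjusted p = 0.0287), while Csgalnact2 (0.48), Chsy1 (0.43), Csgalnact1 (0.82) and Dse (0.35) had adjusted p of 0.118 to 0.388. All 9 fold changes were positive in that setting, with a median of 0.35 against -0.02 over all genes. Dsel itself was not called in that setting once any 1 library was left out (adjusted p 0.0536 to 0.118).

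**Figure D4:**
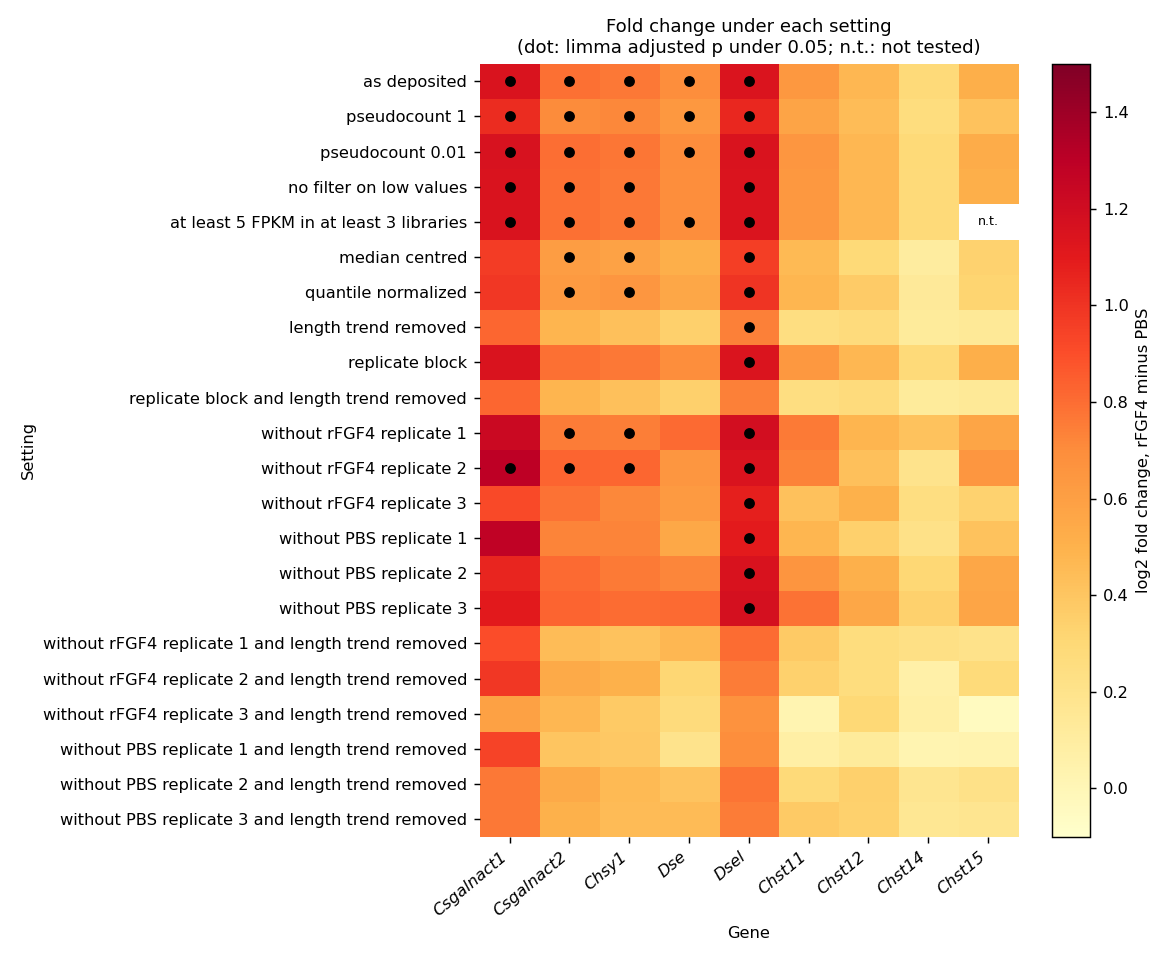
Colour gives the log2 fold change (rFGF4 minus PBS) of each enzyme gene on the x axis under each setting on the y axis, and a dot marks limma's adjusted p under 0.05. Dsel carries a dot in 15 of the 22 settings and loses it where the length trend is removed together with the replicate block (adjusted p = 0.0838) or with 1 library left out, Dse carries one in 4, and the sulfotransferase genes Chst11, Chst12, Chst14 and Chst15 in 0. Chst15 was not tested (n.t.) with the filter of at least 5 FPKM.

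Other genes of the route were read from a list of 45, of which 40 were measured and 39 tested. Of these 39, 11 rose and 0 fell, against 8.46% and 3.62% of all tested genes, and the median log2 fold change was 0.39, against 0.19 over all. In 25 of them all rFGF4 libraries lay above all PBS libraries, against 30.9% of tested genes. With the length trend removed, limma called 0 of the 38 with a known length, with 10 at an unadjusted p under 0.05, and 28 fold changes were positive, against 37 of 39 as deposited. With 1 library left out, 8 were called without rFGF4 replicate 2 and 0 or 1 without any other.

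Of 7 genes that build the linker between core protein and chain, limma called 0, with 4 at an unadjusted p under 0.05. Xylt1, the xylosyltransferase that starts the linker, had the smallest p, at 3.12 ± 0.135 FPKM in rFGF4 skin and 2.07 ± 0.424 FPKM in PBS skin (SD, n = 3 each, limma adjusted p = 0.0769). Of 5 further genes of chain growth and sulfation, Chpf and Ust rose. Chpf, the partner of chondroitin synthases in polymerisation, had 17.1, 14.7 and 19.0 FPKM in rFGF4 skin, against 10.6, 11.4 and 11.2 FPKM in PBS skin. Ust, which sulfates position 2 of the uronic acid, had 5.35, 5.37 and 5.29 FPKM in rFGF4 skin, against 2.59, 3.16 and 2.64 FPKM in PBS skin. It rose by 0.91 on the log2 scale (SE 0.133, limma adjusted p = 0.0157), and its rFGF4 libraries were nearly identical.

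Of 10 genes that supply sugar and sulfate donors, 3 rose. Ugdh, which makes UDP-glucuronic acid, had 13.7, 17.4 and 18.5 FPKM in rFGF4 skin, against 9.97, 8.57 and 9.29 FPKM in PBS skin (limma adjusted p = 0.023). Papss2, a synthase of the sulfate donor PAPS, averaged 8.46 ± 1.12 FPKM in rFGF4 skin and 4.96 ± 0.847 FPKM in PBS skin. Bpnt2, a Golgi phosphatase that clears the by-product of sulfation, averaged 15.1 ± 2.22 FPKM in rFGF4 skin and 9.04 ± 0.326 FPKM in PBS skin. Their adjusted p were 0.0378 and 0.0248 by limma, and Bpnt2 had no transcript length here.

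Of 10 lysosomal genes of chain breakdown, 3 rose, Ids and Arsb among them. Ids, the sulfatase that removes sulfate from iduronic acid, rose by 0.69 on the log2 scale and Arsb, which removes the 4-O-sulfate of galactosamine, by 0.83 (limma adjusted p = 0.0187 and 0.0414). Enzymes of synthesis and of breakdown were thus both among the genes called higher.

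Of 7 tested core proteins, Dcn, Bgn and Tgfbr3 rose. Dcn, decorin, had 213, 180 and 234 FPKM in rFGF4 skin, against 98.2, 106 and 117 FPKM in PBS skin, and Bgn, biglycan, had 343, 261 and 317 FPKM against 162, 187 and 182 FPKM. Both are small proteoglycans of the fibroblast matrix, and their log2 fold changes of 0.96 and 0.79 had limma adjusted p of 0.0192 and 0.0308. Tgfbr3, a TGF-beta co-receptor that can carry such chains, rose by 0.92 (limma adjusted p = 0.0179). Vcan, versican, had 25.1, 25.6 and 16.4 FPKM in rFGF4 skin, against 15.0, 8.39 and 13.8 FPKM in PBS skin, and did not pass (limma adjusted p = 0.0814).

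**Figure D5:**
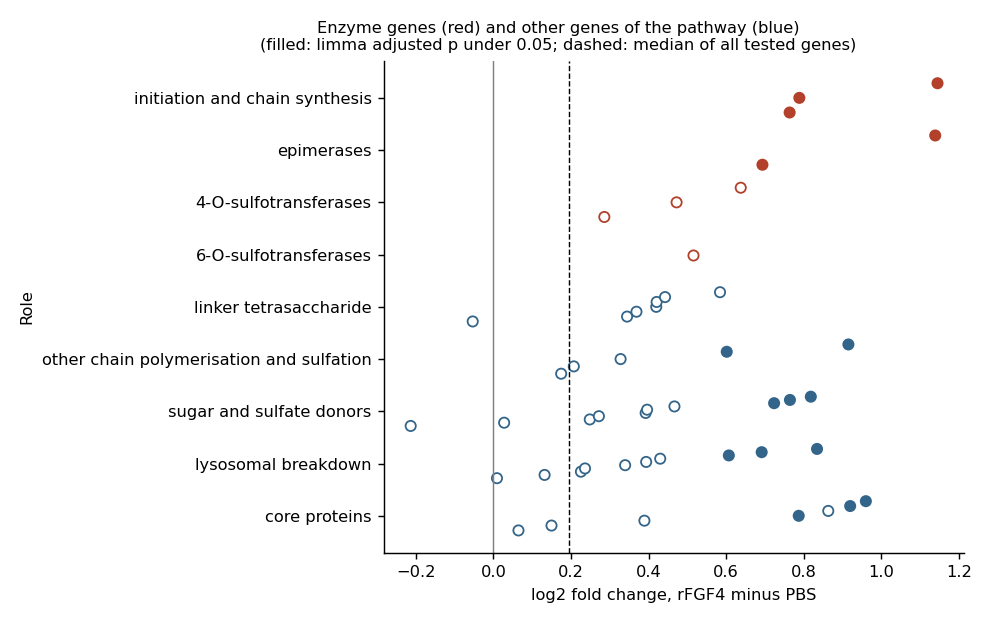
Each point is 1 gene, with the log2 fold change (rFGF4 minus PBS) on the x axis and its role on the y axis; the 9 enzyme genes are red, the other 39 tested genes of the route blue, and filled points passed limma's adjusted p under 0.05. Filled points lie in every role but the linker and the 4-O- and 6-O-sulfotransferases.

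Fibroblasts are the main makers of these chains in dermis. Of 8 fibroblast markers, 4 rose (Pdgfra, Col3a1, Lum and Col1a2), against 8.46% of all tested genes, and 0 were called with the length trend removed. The summed level of the 8 was 4780 to 5382 FPKM in rFGF4 skin, against 2689 to 3405 FPKM in PBS skin. Of 8 macrophage markers, Mrc1 and Cd163 rose and 1 marker was called with the length trend removed, with sums of 840 to 1720 FPKM in rFGF4 skin and 662 to 1445 FPKM in PBS skin. In the 8 other lists with tested genes (keratinocyte, endothelial, skeletal muscle, adipocyte, neutrophil, T cell, mast cell and Schwann cell) limma called 0 of 40 genes, with 3 at an unadjusted p under 0.05. Keratinocyte markers summed to 2776 to 3861 FPKM in rFGF4 skin and 2251 to 7497 FPKM in PBS skin. Neutrophil markers summed to 228 to 706 FPKM in rFGF4 skin and 475 to 2810 FPKM in PBS skin. Of the 5, only S100a8 had groups that did not overlap (43.9, 105 and 45.0 FPKM in rFGF4 skin, against 123, 316 and 612 FPKM in PBS skin). Elsewhere in these 8 lists, only Adipoq and Tek separated, both higher with rFGF4. Adipoq had 12.6 to 20.7 FPKM in rFGF4 skin, against 8.95 to 11.4 FPKM in PBS skin. Tek had 5.54 to 10.5 FPKM against 4.46 to 5.43 FPKM. Among the sums of these 8 lists, only that of Schwann cell markers separated (9.65 to 11.85 FPKM in rFGF4 skin, 11.92 to 13.02 FPKM in PBS skin). Of all tested genes, 30.9% had all rFGF4 libraries above all PBS libraries and 7.36% had them below. No measured marker of these 10 lists was at 0 in any library. The part of these markers in the rise of the enzyme genes was not tested. In whole skin, more cells of a type and more RNA per cell cannot be told apart.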

How the data were processed

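RNA of whole skin was measured in 6 poly(A) libraries, 3 from rFGF4-treated and 3 from PBS-treated diabetic mice. Per the submitters' processing notes, the tools were edgeR, StringTie, HISAT2 and fastp, in no stated order, and the build was GRCh38, which is human although the organism is mouse; which reference was used is not given in the sources used here. The deposited table gives 1 value per gene and library, read as FPKM made by the authors because the values are not whole and StringTie is named; the header gives no unit. It also holds the authors' p-value and q-value per gene, a fold column (the ratio of group means in 99.9% of lines) and its log2. Every listed gene passes 1 FPKM in at least 1 library. Depth is unknown, since FPKM keep no counts. Column names gave the sample of all 6 value columns (0 left over).

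The 14676 genes that reached 1 FPKM in 3 or more libraries entered limma-trend as log2(FPKM + 0.1) (robust, two-sided, group as the only term, Benjamini-Hochberg adjusted p under 0.05) over the whole table. Ratios of genes within a library were tested by exact permutation over the 20 splits of 6 libraries and adjusted over 5 ratios; a sixth, with Chst3, was not analysed here. Transcript lengths came from GENCODE M21 on GRCm38 (longest principal transcript) and were known for 14191 tested genes; the length trend was removed in each library by loess (span 0.3, degree 1). Alternatives were other pseudocounts, filters and scalings, the length correction, the replicate number as a block and each library left out. Leaving out a library together with the length correction was chosen after seeing the data. The genes and lists were chosen with earlier results of these data known. Named genes are all 10 enzyme genes, and of the other list each called gene and the smallest p in each role (1 called gene is counted but not reported here by name); Vcan, which that rule does not take, was added after its values were seen. Scripts were tested on simulated data. R 4.3.3, limma 3.58.1, statmod 1.5.0, Python 3.11.15 and scipy 1.17.1 were used.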

Additional observations from a re-analysis of the deposited data

How the results depend on the processing

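Other pseudocounts (1 and 0.01) and filters (none, or at least 5 FPKM in at least 3 libraries) left 4 or 5 of the 9 enzyme genes called higher. Chst15 did not pass the filter of at least 5 FPKM and was not tested there. Calls of enzyme genes, of the 39 other genes of the route and of all genes (higher and lower) numbered 3, 4, 138 and 617 with median-centred libraries, and 3, 5, 235 and 514 with quantile normalization; the enzyme genes lost in both were Csgalnact1 and Dse. They numbered 1, 0, 77 and 229 with the length trend removed. With the replicate block they numbered 1, 0, 31 and 202, and 0, 0, 12 and 100 with the block and the length trend removed, where Dsel had an adjusted p of 0.0838; with either alone, the enzyme gene called was Dsel. Whether the replicate numbers pair the libraries is unknown. Same-numbered libraries deviated from their group means with correlations of 0.183, -0.067 and -0.125. Differently numbered ones did so with correlations from -0.334 to 0.351, so these values cannot decide it. With 1 library left out, 1 to 4 enzyme genes, 0 to 8 other genes of the route, and 24 to 393 higher and 132 to 497 lower genes were called; with the length trend removed as well, 0 enzyme genes and 0 to 1 other genes were. In that setting 30, 43 and 39 genes were called higher and 161, 178 and 138 lower without rFGF4 replicate 1, 2 or 3, and 4, 8 and 23 higher and 69, 67 and 94 lower without PBS replicate 1, 2 or 3. Without the length correction, Dsel was the only enzyme gene called in every fit with 1 library left out. Among the enzyme genes and their ratios, signs turned for 1 fold change and 1 ratio: the log2 fold change of Chst15 was -0.049 with the length trend removed and without rFGF4 replicate 3, and the difference in log2 ratio of Chst11 to Chst12 was 0.17 with all libraries, -0.081 without rFGF4 replicate 3, -0.024 with the length trend removed and up to 0.30 without another library. The cause was not tested. The interval of Chst14 held 0 as deposited.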
